A study of Mus musculus with 6 samples.

Results

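The genes described here are p53, its 2 main inhibitors and 7 of its direct targets, 10 genes in all out of 23574 gene features: Trp53, Mdm2, Mdm4, Ccng1, Zmat3, Sesn1, Sesn2, Phlda3, Trp53inp1 and Gadd45a. They were taken by name, and their levels were read from RNA sequencing of haematopoietic stem cells of C57BL/6 mice. The study set 3 libraries labelled HLF KO, from mice lacking Hlf (hepatic leukaemia factor, a PAR bZIP transcription factor), against 3 libraries of wild-type (WT) littermates. The sorted cells were LSK CD34- Flt3-, where LSK stands for cells without lineage markers that carry Sca-1 and c-Kit, and 3000 went into every library. The labels used here do not state age, sex, the part of Hlf removed, any treatment, or whether each library had its own animal, so p-values cover only how far these libraries vary, and part of that variation may be technical.

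The transcription factor p53 is kept low in unstressed cells by Mdm2, a ubiquitin ligase that marks it for destruction, and by Mdm4, a related protein that blocks its activity and pairs with Mdm2. DNA damage and other stresses release p53, which then switches on genes that halt the cell cycle, repair DNA, adjust metabolism or start apoptosis, and Mdm2 itself, which closes a feedback loop. In mouse haematopoietic stem cells p53 is known for a part in keeping the cells out of cycle and for removing damaged cells.

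The libraries held 10462713, 10182464 and 11998296 read counts for HLF KO 1 to 3, and 8346335, 9902102 and 8800688 for WT 1 to 3, so every HLF KO library was deeper than every WT library. Hlf stood at 28.3, 37.6 and 37.3 CPM in HLF KO libraries and at 1370.0, 1662.2 and 1114.2 CPM in WT libraries, a log2 fold change of -5.33 (edgeR adjusted p = 1.9e-06, SE 0.26). Levels are given as CPM, read counts scaled to library size with TMM factors. The other 11 stem cell markers summed to 323 to 418 CPM in HLF KO and 520 to 659 CPM in WT. With Hlf included, 10 stem cell markers were tested, 3 with positive and 7 with negative log2 fold changes. HLF KO and WT libraries were fully apart for 1 in the higher and 4 in the lower direction, Hlf among the 4. The shares over all tested genes were 7.52% higher and 6.85% lower. Of the other 11 markers, Ly6a (Sca-1) was at 0 in all 6 libraries and Kit had 1 count in all. Both genes have 2 or more listed transcripts. Genes with 1 listed transcript had a median total of 79 counts, and those with 2 had a median of 3.

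Of the 10 genes, 9 had enough counts to be tested, and none passed the test between genotypes. With the quasi-likelihood test of edgeR, 0 of 9 passed an adjusted p of 0.05, as against 0.0098% of all 10204 genes tested. DESeq2 called 0 of the 9 and 1.09% of all genes, and limma-voom called 0 of the 9 and 1 of all 10204 genes. At an unadjusted edgeR p under 0.05 there were 0 of 9, beside 7.27% of all genes. In 0 of 9 were the HLF KO and WT libraries fully apart, beside 14.4% of all genes. The log2 fold change was positive in 3 of 9 members and in 47.2% of all genes, and its median was -0.58 over the 9 and -0.05 over all genes.

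**Figure D1:**
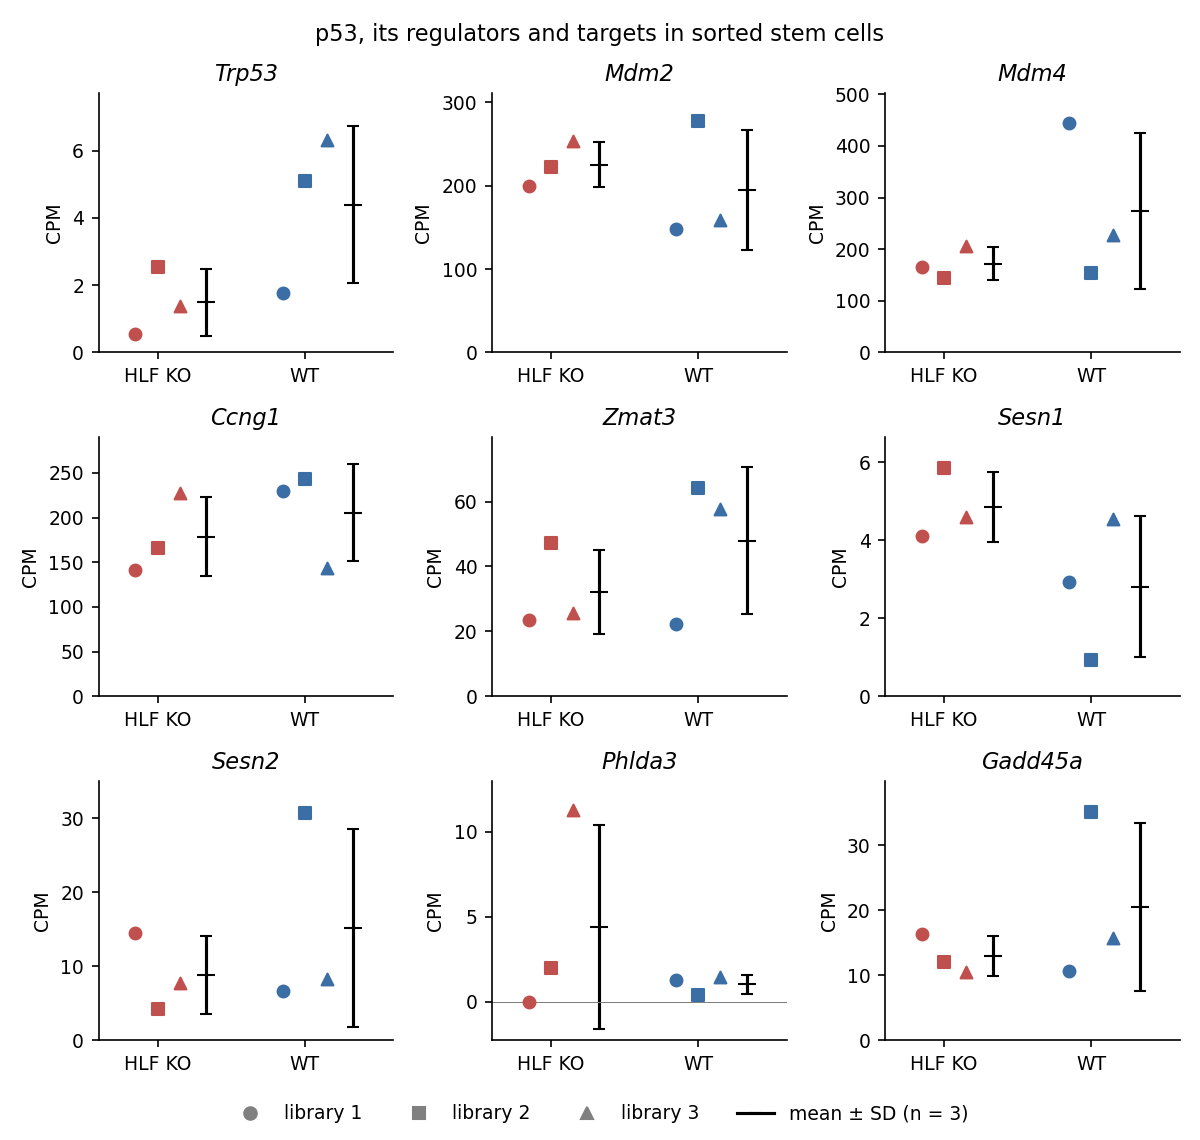
CPM (y axes, linear, each gene on its own scale) of the 9 tested genes in HLF KO libraries (red, left) and WT libraries (blue, right), with the mean ± SD of 3 libraries in black. The ranges of the genotypes overlap in all 9 panels, and WT library 2 (square) is the highest of the 6 for Mdm2, Ccng1, Zmat3, Sesn2 and Gadd45a.

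Trp53, which encodes p53, had counts under 1 of its 2 listed transcripts. These are NM_001127233 and NM_011640. All 169 counts stood under NM_001127233, and NM_011640 was at 0 in every library. In GENCODE (GRCm38), NM_001127233 has 96 bases that NM_011640 lacks, at the start of its last exon (chr11:69591254-69591349, plus strand), while NM_011640 has 0 bases of its own. The coding part of this stretch is shown because it is what sets the counted transcript apart, with the preceding shared exon in lower case and the bases found in NM_001127233 only in capitals.
NM_001127233: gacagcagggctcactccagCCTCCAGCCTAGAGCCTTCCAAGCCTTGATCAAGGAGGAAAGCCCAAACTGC
NM_011640: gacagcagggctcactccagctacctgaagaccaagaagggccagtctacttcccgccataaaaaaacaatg
Both lines begin with the same 20 bases of the exon before the junction and go on for 52 coding bases. How reads over the shared bases were counted is not stated, so the Trp53 values are given for NM_001127233 and not as the level of the whole gene. Across the table, among 3196 genes with several listed transcripts and a separate GENCODE entry for each, 1.26% of the 1665 transcripts with 0 bases of their own had any count, against 42.9% of the 6281 transcripts with at least 1 such base.

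In the HLF KO libraries NM_001127233 had 6, 27 and 16 counts, and in the WT libraries it had 14, 49 and 57. These are 0.549, 2.54 and 1.39 CPM in HLF KO and 1.78, 5.10 and 6.32 CPM in WT. WT libraries 2 and 3 were the highest of the 6, while HLF KO library 2 lay above WT library 1. The log2 fold change was -1.55 (95% interval -4.55 to 1.44, edgeR adjusted p = 0.824, SE 1.37). With 1 library left out it ran from -2.15 to -1.15.

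**Figure D2:**
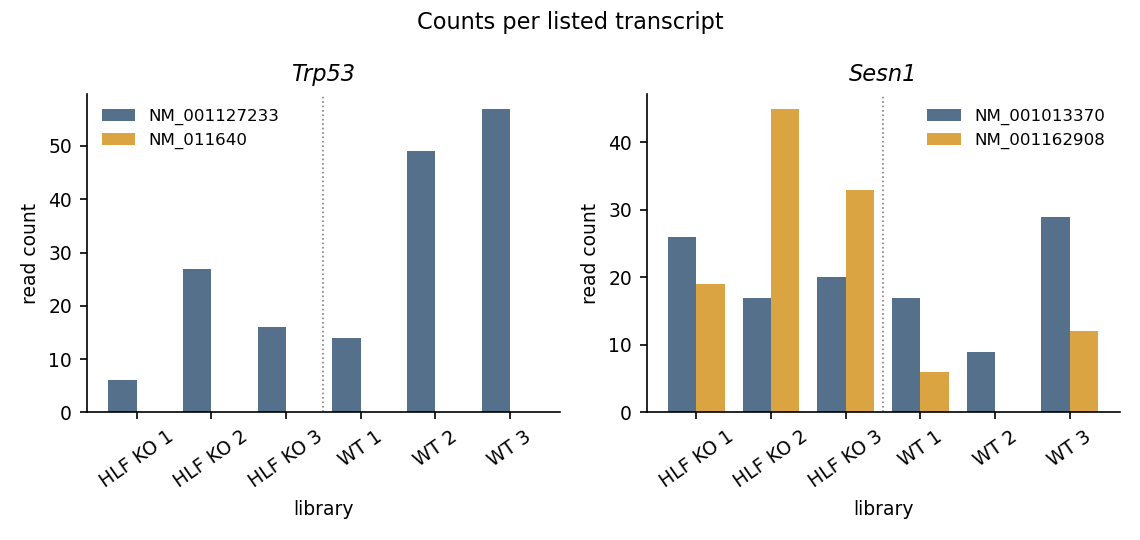
Read counts (y axis) per listed transcript of Trp53 and Sesn1 in each library (x axis, HLF KO left of the dotted line, WT right). All Trp53 counts stand under NM_001127233, and Sesn1 NM_001162908 had 19 to 45 counts in HLF KO libraries and 0 to 12 in WT libraries.

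Mdm2 did not pass the test, and its HLF KO libraries lay inside the WT range. It has 1 listed transcript, NM_010786, with 12736 counts in all. The level was 200, 222.0 and 254 CPM in HLF KO libraries, and 148, 277 and 159 CPM in WT libraries. WT library 2 was the highest of the 6 and WT libraries 1 and 3 the lowest. The means were 225 ± 27.2 CPM in HLF KO and 195 ± 71.4 CPM in WT (SD, n = 3 each), and the log2 fold change was 0.21 (edgeR adjusted p = 0.912, SE 0.29). The 95% interval, -0.43 to 0.85, runs from 0.744-fold to 1.80-fold. With 1 library left out the value ran from 0.06 (without WT library 1) to 0.56 (without WT library 2) (edgeR adjusted p of at least 0.573 with any 1 library left out).

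Mdm4 had the smallest p of the 10 genes and did not pass either. Its 1 listed transcript, NM_008575, had 12740 counts in all, at 166, 144 and 207 CPM in HLF KO libraries and 444, 153 and 227 CPM in WT libraries. WT library 1 stood far above the other 5, and WT library 2 lay within the HLF KO range. The means were 172 ± 32.2 CPM in HLF KO and 275 ± 151 CPM in WT (SD, n = 3 each), with a log2 fold change of -0.67 (95% interval -1.46 to 0.12, edgeR unadjusted p = 0.087, adjusted p = 0.706, SE 0.36). With 1 library left out the value ran from -0.95 (without WT library 2, edgeR adjusted p = 0.487) to -0.12 (without WT library 1).

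The ratio of the 2 inhibitors had a wider range in WT libraries than in HLF KO libraries. Per kb of transcript, Mdm2 averaged 72.7 ± 8.78 CPM and Mdm4 49.4 ± 9.23 CPM in HLF KO (SD, n = 3). In WT, Mdm2 averaged 62.8 ± 23.0 and Mdm4 78.7 ± 43.3 CPM per kb (SD, n = 3). The ratio of Mdm4 to Mdm2 per kb, chosen after the values were seen, was 0.739, 0.574 and 0.724 in HLF KO libraries, and 2.66, 0.491 and 1.265 in WT libraries. The difference did not pass a two-sided exact permutation test on the log2 ratio (p = 0.4, where 0.1 is the smallest p that 3 against 3 allow). Mdm2 was thus above Mdm4 in every HLF KO library and in WT library 2, and below it in WT libraries 1 and 3.

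**Figure D3:**
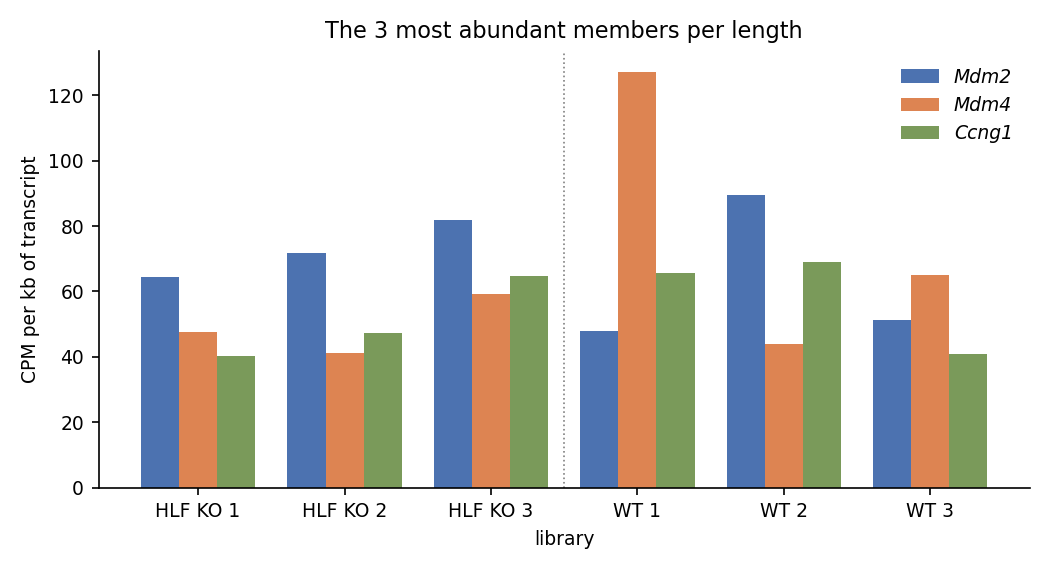
CPM per kb of transcript (y axis, from 0) of Mdm2, Mdm4 and Ccng1 in each library (x axis, HLF KO left of the dotted line, WT right). Mdm4 reaches 127 CPM per kb in WT library 1 and lies between 41.1 and 65.0 in the other 5.

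Among the 5 targets with 1 listed transcript and a level per kb, Ccng1 was the highest. Cyclin G1, the product of Ccng1, is known to recruit a phosphatase to Mdm2 and so takes part in the p53 feedback loop. Over HLF KO libraries it averaged 50.9 ± 12.6 CPM per kb (SD, n = 3), close to Mdm4, and the next target was Gadd45a at 10.6 ± 2.50. Zmat3 (4.12 ± 1.68), Phlda3 (3.07 ± 4.19) and Sesn2 (2.53 ± 1.52) followed, and their neighbouring values lay within the SD of each other. In WT the order was Ccng1 (58.5 ± 15.4), Gadd45a (16.8 ± 10.6), Zmat3 (6.15 ± 2.90), Sesn2 (4.36 ± 3.87) and Phlda3 (0.727 ± 0.383). In WT the means of Zmat3 and Sesn2 were the only neighbours in this order that differed by less than the SD of each.

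Among the 8 members with a promoter window, Ccng1 is the one whose window holds a paired p53 site. A p53 site is built of 2 copies of a short palindromic half-site, and p53 binds the pair as a tetramer. RefSeq promoter windows (GRCm38.p6, 250 bases before to 50 after the start) were found for 8 of the 10 genes, in 10 windows. They were searched for the p53 half-site consensus, which reads the same on both strands. A perfect half-site was present in 5 of these 10 windows and in 8.36% of 32851 windows of all genes. For the other p53 pathway genes described below it was present in 10 of 64 windows. The members were taken as known regulators and targets of p53, and these shares were not compared by a test. A pair of half-sites with at most 1 mismatch in all and a spacer of up to 13 bases was present in 1 of 10, that of Ccng1, and in 1.09% of all windows. Such a pair was also present in 5 of 64 windows of the other p53 pathway genes described below, Cdkn1a among them. The matches are shown so that the half-sites of the members can be compared, with half-sites in capitals and all lines written 5′ to 3′ along the gene.
Ccng1 (chr11:40755442-40755501, minus strand): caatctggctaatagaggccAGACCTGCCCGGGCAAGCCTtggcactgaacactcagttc
Mdm2 (chr10:117710915-117710964, minus strand): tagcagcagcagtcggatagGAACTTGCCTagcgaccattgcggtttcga
Gadd45a (chr6:67037418-67037467, minus strand): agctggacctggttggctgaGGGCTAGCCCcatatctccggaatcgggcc
Sesn1 (chr10:41887246-41887295, plus strand): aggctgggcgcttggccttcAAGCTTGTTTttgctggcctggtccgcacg
Trp53 (chr11:69580264-69580313, plus strand): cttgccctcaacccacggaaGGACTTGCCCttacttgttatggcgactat
The Ccng1 pair has no spacer and 1 mismatch, and it starts 195 bases before the start site. The Sesn1 window shown is the one in which NM_001013370 starts. The windows of Mdm4, Sesn2 and Phlda3 and the other Sesn1 window held no half-site, and Zmat3 and Trp53inp1 had no entry. A match is a string of letters, and binding was not measured. Sequence outside these windows was not searched.

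Ccng1 itself did not pass the test. Its 1 transcript, NM_009831, had 11386 counts, at 142, 167 and 228 CPM in HLF KO libraries and 230.0, 243 and 143 CPM in WT libraries. HLF KO library 1 and WT library 3 were nearly equal at the low end, as were HLF KO library 3 and WT library 1 near the top. The means were 179 ± 44.3 CPM in HLF KO and 205 ± 54.1 CPM in WT (SD, n = 3 each), and the log2 fold change was -0.20 (edgeR adjusted p = 0.919, SE 0.30). It was -0.05 without HLF KO library 1 and -0.41 without HLF KO library 3. With Mdm2 it had the narrowest interval of the 10 genes, -0.85 to 0.45, or 0.555-fold to 1.36-fold.

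Zmat3, an RNA-binding zinc finger protein, and Gadd45a, a stress protein that binds PCNA and halts cells before mitosis, did not pass the test either. Zmat3 stood at 23.6, 47.2 and 25.6 CPM in HLF KO libraries and at 22.1, 64.2 and 57.6 CPM in WT libraries. WT libraries 2 and 3 were the highest, and WT library 1 was the lowest of all 6. Its log2 fold change was -0.58 (95% interval -1.79 to 0.63, edgeR adjusted p = 0.843, SE 0.55), -0.95 without HLF KO library 2 and -0.30 without WT library 2. Gadd45a stood at 16.4, 12.1 and 10.5 CPM in HLF KO libraries and at 10.7, 35.2 and 15.7 CPM in WT libraries. Only WT library 2 lay above the HLF KO range. The log2 fold change of Gadd45a was -0.66 (95% interval -2.31 to 0.98, edgeR adjusted p = 0.877, SE 0.75), -0.96 without WT library 1 and -0.02 without WT library 2. In GENCODE, 337 of its 1764 exonic bases overlap E230016M11Rik on the opposite strand. That gene had 10, 7 and 4 counts in HLF KO libraries and 0, 0 and 2 in WT libraries. The sources used here do not say whether the counting used strand.

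The sestrins Sesn1 and Sesn2, which restrain the growth kinase mTORC1 under stress, had low counts. Sesn1 has 2 listed transcripts that share bases, and how reads over shared bases were counted is not stated. Its values are therefore not given as the level of the whole gene. Sesn2 stood at 14.5, 4.14 and 7.71 CPM in HLF KO libraries and at 6.62, 30.7 and 8.20 CPM in WT libraries. WT library 2 was far above the others, and the rest of the WT libraries lay within the HLF KO range. The log2 fold change was -0.79 (edgeR adjusted p = 0.893, SE 0.96), it was -1.34 without HLF KO library 1, and it turned to 0.26 without WT library 2. Sesn1 stood at 4.12, 5.84 and 4.59 CPM in HLF KO libraries and at 2.93, 0.936 and 4.54 CPM in WT libraries. WT library 2, the highest for Sesn2, was the lowest for Sesn1. The log2 fold change of Sesn1 was 0.79 (95% interval -2.00 to 3.58, edgeR adjusted p = 0.926, SE 1.28), 0.38 without WT library 2 and 1.33 without WT library 3.

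Sesn1 has 2 listed transcripts with bases of their own. NM_001013370, with 157 bases that the other lacks, had 26, 17 and 20 counts in HLF KO libraries and 17, 9 and 29 in WT libraries. NM_001162908, with 1366 bases of its own, had 19, 45 and 33 counts in HLF KO libraries and 6, 0 and 12 in WT libraries. The raw counts of HLF KO and WT libraries overlapped for NM_001013370 and were apart for NM_001162908. Every HLF KO library was deeper than every WT library. Scaled to library size, the counts of NM_001162908 were still apart, and 14.4% of all tested genes were apart in CPM. The transcripts were not tested singly.

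Phlda3 had most of its counts in 1 library, and Trp53inp1 was near the limit of detection. Phlda3, which encodes a small lipid-binding protein that competes with the kinase Akt at the membrane, had 0, 21 and 130 counts in HLF KO libraries and 10, 4 and 13 in WT libraries. HLF KO library 3 held most of the 178 counts, at 11.3 CPM, while HLF KO library 1 had a count of 0, which allows up to 3 counts. HLF KO over WT gave a log2 fold change of 2.07 (edgeR adjusted p = 0.818, SE 1.79), it was 2.66 without HLF KO library 1, and it turned to -0.07 without HLF KO library 3. Trp53inp1, which promotes p53 phosphorylation and autophagy, had 0 counts in the HLF KO libraries and 0, 0 and 2 in the WT libraries, and was not tested. Both its listed transcripts map to the same GENCODE entry, so the bases of each alone could not be counted. A level this low in such a gene was not read as absence of expression.

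Several members were highest in the same WT library. WT library 2 was the highest of the 6 for 5 of the 9 genes, namely Mdm2, Ccng1, Zmat3, Sesn2 and Gadd45a, and the highest for 20.6% of all tested genes. On the scale of log2(CPM + 1) minus the mean of the 6 libraries, WT library 2 stood at 1.56 for Sesn2, 1.15 for Gadd45a, 0.80 for Zmat3, 0.43 for Mdm2 and 0.37 for Ccng1. On the same scale it stood at -0.43 for Mdm4, -0.86 for Phlda3 and -1.21 for Sesn1. WT library 2 also had the lowest summed CPM of 15 S-phase genes, 2271, and the part of this in the values was not tested. HLF KO library 1 was the highest for 0 of the 9, beside 11.6% of all tested genes. The median coefficient of variation over the 9 genes was 24.8% in HLF KO and 53.4% in WT. Over all tested genes it was 31.8% in HLF KO and 49.9% in WT.

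**Figure D4:**
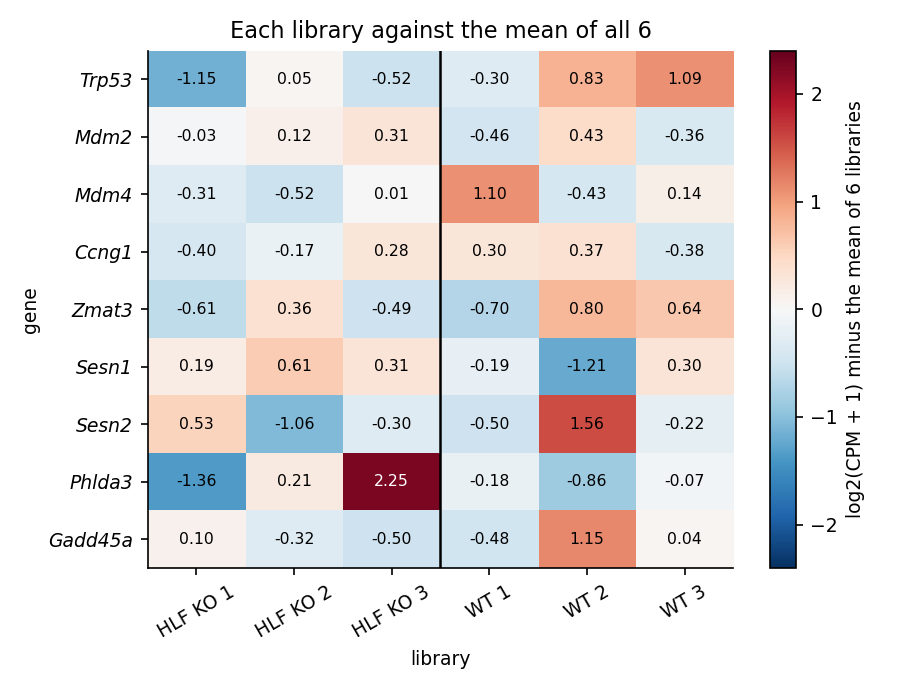
Difference of each library (x axis, HLF KO left of the line, WT right) from the mean of all 6 on the log2(CPM + 1) scale, for the 9 tested genes (y axis), red above and blue below the mean. WT library 2 reaches 1.56 for Sesn2 and 1.15 for Gadd45a, WT library 1 reaches 1.10 for Mdm4, and HLF KO library 3 reaches 2.25 for Phlda3.

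A further 57 genes of the p53 pathway were read beside the 10. They were grouped into upstream factors, cell cycle arrest, apoptosis, repair and metabolism, and p53-linked stem cell genes. Of these, 37 were tested, and 0 passed edgeR's or DESeq2's adjusted test in either direction, beside 0.0098% and 1.09% of all genes. At an unadjusted edgeR p under 0.05 there were 2, 1 higher and 1 lower, beside 2.63% higher and 4.65% lower among all genes. HLF KO and WT libraries were apart for 6 of 37, 3 higher and 3 lower, beside 7.52% higher and 6.85% lower. The median log2 fold change over the 37 was -0.17.

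The upstream factors had 16 of 21 genes tested, 8 with positive and 8 with negative log2 fold changes. Ppm1d, which encodes the phosphatase Wip1 that switches off p53 and its activating kinases and is itself a p53 target, stood at 39.2, 44.9 and 43.4 CPM in HLF KO libraries and at 19.2, 9.26 and 21.2 CPM in WT libraries. Every HLF KO library lay above every WT library. The fitted log2 fold change was 1.36 (95% interval 0.13 to 2.60, edgeR unadjusted p = 0.033, adjusted p = 0.65, SE 0.56), and with 1 library left out it lay between 1.08 and 1.58. The kinase gene Atr, at 148, 144 and 122.3 CPM in HLF KO and 91.9, 96.5 and 122.2 CPM in WT, was also apart, by a narrow gap (log2 fold change 0.41, SE 0.29, edgeR adjusted p = 0.77).

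The acetyltransferase genes Ep300 and Crebbp, whose products acetylate p53, had values of -0.51 (edgeR adjusted p = 0.684, SE 0.24, -0.69 without WT library 2 and -0.26 without WT library 1) and -0.21 (edgeR adjusted p = 0.835, SE 0.20). Crebbp was lower in every HLF KO library (344, 386 and 378 CPM) than in any WT library (438.0, 439 and 406 CPM). Atr and Crebbp were named after their values were seen. The checkpoint kinase gene Chek1 stood at 473, 102 and 61.9 CPM in HLF KO libraries and at 166, 41.4 and 28.4 CPM in WT libraries, and HLF KO library 1 was the highest. Its log2 fold change was 1.43 (edgeR adjusted p = 0.706, SE 0.77). With 1 library left out it ran from 0.06 (without HLF KO library 1) to 2.62 (without WT library 1, edgeR adjusted p = 0.454). The upstream genes with the highest counts were Rpl5 and Rpl11, ribosomal proteins that bind Mdm2, with log2 fold changes of 0.13 (SE 0.17) and -0.08 (SE 0.22). That of Rpl5 was 0.08 without WT library 1 and 0.23 without WT library 3. That of Rpl11 was -0.38 without HLF KO library 3, 0.04 without HLF KO library 1 and 0.08 without HLF KO library 2.

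Genes of cell cycle arrest were poorly covered. Cdkn1a, the best known arrest target of p53, has 2 listed transcripts and had 1 count in all, in WT library 3, so it was not tested. As for Trp53inp1, so low a count in a gene with several listed transcripts was not read as absence of expression. Btg2, an antiproliferative gene and p53 target, stood at 109, 96.2 and 142 CPM in HLF KO libraries and at 114, 93.0 and 108 CPM in WT libraries. Its ranges overlapped, and its log2 fold change was 0.14 (edgeR adjusted p = 0.947, SE 0.31), and -0.02 without HLF KO library 3. Sfn, which encodes the 14-3-3 sigma protein, had 93, 171 and 272 counts in HLF KO libraries and 0, 42 and 23 in WT libraries. Each HLF KO library was above each WT library, with a log2 fold change of 2.79 (95% interval -0.24 to 5.82, edgeR adjusted p = 0.689, SE 1.38). The polo-like kinase gene Plk2 stood at -1.10 (SE 1.23), at -3.01 without HLF KO library 3 and at 0.19 without WT library 3.

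Apoptosis targets had 7 of 12 genes tested, 2 with positive and 5 with negative values. Bax, which opens the mitochondrial membrane, had 624, 563 and 259 counts in HLF KO libraries and 197, 760 and 275 in WT libraries. The groups overlapped throughout, and the log2 difference was -0.02 (95% interval -1.28 to 1.23, edgeR adjusted p = 0.995, SE 0.57). It was -0.30 without WT library 1, 0.68 without WT library 2, 0.30 without HLF KO library 3 and 0.05 with upper-quartile factors. Bbc3, which encodes the BH3 protein Puma, had 39, 4 and 81 counts in HLF KO libraries and 5, 40 and 70 in WT libraries, a log2 difference of -0.20 (SE 1.46), -1.07 without HLF KO library 3, 0.35 without HLF KO library 2 and 0.61 without WT library 3. Pmaip1, which encodes the BH3 protein Noxa, had 18, 12 and 12 counts in HLF KO libraries and 4, 49 and 389 in WT libraries. WT library 3 held most of its counts. The log2 fold change of Pmaip1 was -3.66 (edgeR unadjusted p = 0.030, adjusted p = 0.637, SE 1.48), -4.22 without WT library 1 and -1.13 without WT library 3.

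Of the other apoptosis genes, Perp, a desmosomal membrane protein gene, was lower in every HLF KO library (5.03, 8.48 and 6.93 CPM) than in any WT library (24.3, 10.9 and 8.64 CPM). Its log2 fold change was -1.10 (edgeR adjusted p = 0.811, SE 0.91), -1.37 without WT library 3 and -0.51 without WT library 1. Pidd1, which encodes a scaffold for caspase 2, and Rps27l, a ribosomal protein and p53 target, had the highest counts of the list. Pidd1 stood at 0.36 (SE 0.41, 0.12 without HLF KO library 1 and 0.55 without HLF KO library 3). Rps27l stood at 0.06 (SE 0.24, and 0.21 without HLF KO library 1), and its sign turned, with values between -0.02 and -0.00038, without HLF KO library 2, HLF KO library 3 or WT library 3.

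Genes of repair and metabolism had 9 of 14 tested, 2 with positive and 7 with negative values. Ddb2, a sensor of ultraviolet damage, stood at 14.4, 4.99 and 3.03 CPM in HLF KO libraries and at 3.69, 44.1 and 7.20 CPM in WT libraries. WT library 2 was again the highest, and the log2 fold change of -1.30 (edgeR adjusted p = 0.813, SE 1.09) turned to 0.46 without it and was -2.18 without HLF KO library 1. With 1 library left out, the nuclease gene Ercc5, at -0.99 (SE 0.63), ran from -1.25 (without WT library 3) to -0.29 (without WT library 1). The AMP kinase subunit gene Prkab1, at -0.22 (SE 0.42), ran likewise from -0.55 (without HLF KO library 2) to -0.06 (without HLF KO library 1). The replication clamp gene Pcna, at 0.30 (SE 0.22), ran from 0.11 (without HLF KO library 2) to 0.45 (without HLF KO library 3). Over the 37 tested pathway genes WT library 2 was the highest for 9, or 24.3%, beside 20.6% of all tested genes. Bax, Ddb2, Polk, Rrm2b and Ddit4 were among the 9. Of the p53-linked stem cell genes, Gfi1, with 2 listed transcripts, was at 0, which was likewise not read as absence of expression. The growth suppressor gene Ndn had 36, 65 and 34 counts in HLF KO libraries and 57, 135 and 126 in WT libraries. Its log2 fold change was -1.51 (edgeR adjusted p = 0.769, SE 1.05), and the CPM of HLF KO and WT libraries were apart.

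**Figure D5:**
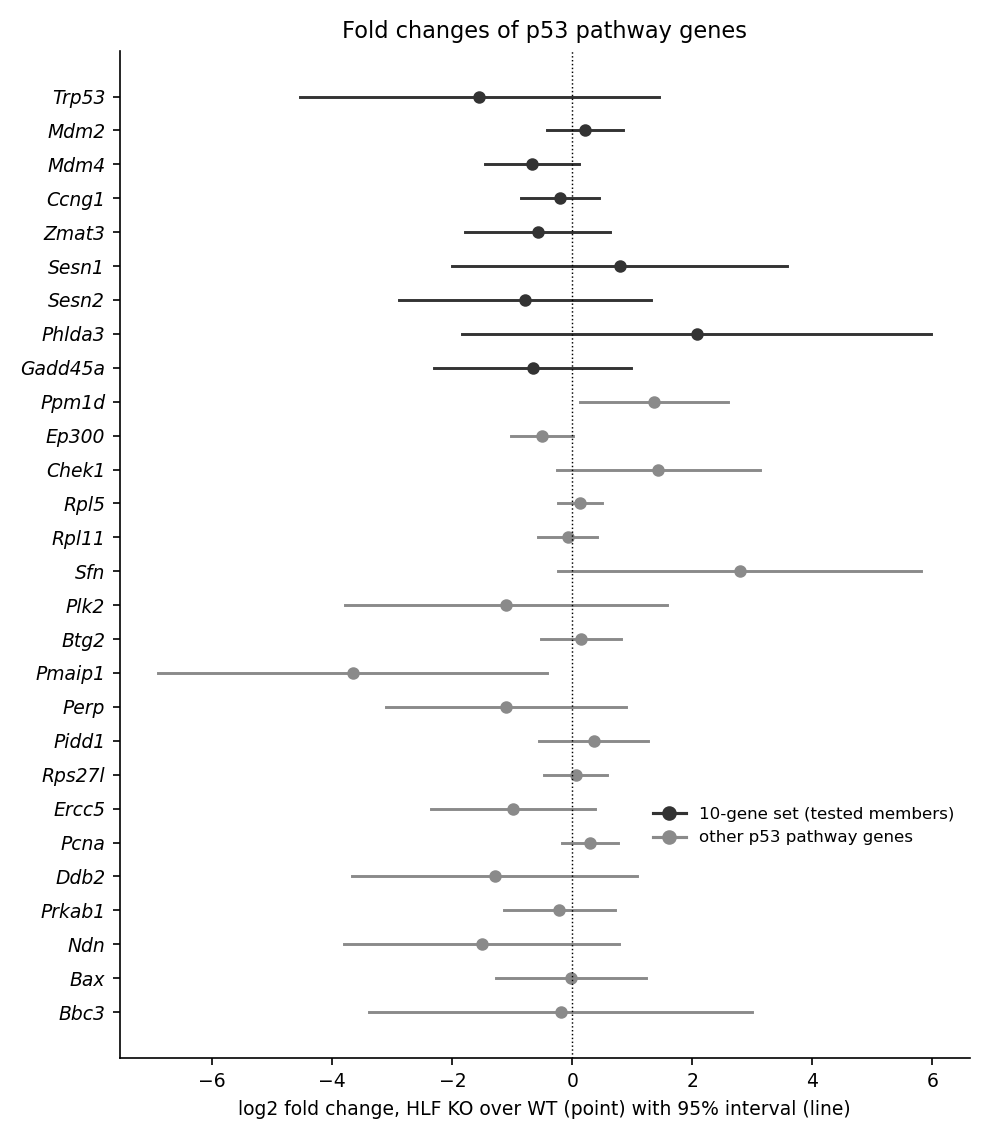
Log2 fold changes of HLF KO over WT (x axis, points) with 95% intervals (lines) for the 9 tested genes of the set (dark) and the named pathway genes (grey). The intervals of all 9 dark genes cross 0, and those of Ppm1d (0.13 to 2.60) and Pmaip1 (-6.90 to -0.43) do not, at adjusted p of 0.65 and 0.637.

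Close relatives of the targets, which are not all p53 targets, were read for comparison. Phlda1, a relative of Phlda3, had 25, 52 and 132 counts in HLF KO libraries and 875, 188 and 194 in WT libraries. It was lower in every HLF KO library, with a log2 fold change of -3.03 (edgeR adjusted p = 0.466, SE 0.88, DESeq2 adjusted p = 0.0202), -1.71 without WT library 1 and -3.81 without HLF KO library 3. Phlda2 stood at -1.72 (SE 1.05), and with 1 library left out it ran from -3.86 (without HLF KO library 1) to -1.20 (without HLF KO library 2). Sesn3, a sestrin known as a target of FoxO factors, stood at 15.6, 26.5 and 18.5 CPM in HLF KO libraries and at 89.1, 19.7 and 53.3 CPM in WT libraries. WT libraries 1 and 3 were high, and its log2 fold change was -1.42 (edgeR adjusted p = 0.655, SE 0.61, -1.81 without WT library 2 and -0.84 without WT library 1). Trp53inp2 stood at -1.84 (SE 0.84), and at -2.31 without WT library 1 and -1.17 without WT library 3. Ccng2 stood at -0.43 (SE 0.52), and at -0.65 without HLF KO library 1 and -0.21 without WT library 1. Gadd45b stood at -0.34 (SE 1.19), at -2.13 without HLF KO library 3, and above 0 without HLF KO library 1, HLF KO library 2 or WT library 1, up to 0.63. Gadd45g had 75, 12 and 27 counts in HLF KO libraries and 0, 0 and 31 in WT libraries. Its fitted value was 1.58 (SE 1.89), 0.61 without HLF KO library 1 and 3.58 by limma-voom. Without WT library 3 the WT side was at 0 counts, and the fitted value of 8.13 (edgeR adjusted p = 0.352) depends on the prior count and is no measure of size. The difference between a member and its relative was not tested.

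Marker lists of other cells and states moved with the libraries. The summed CPM of 14 immediate early genes, which respond within minutes to handling and signals, was 3690 to 4831 in HLF KO and 6015 to 10747 in WT, and all 14 had counts, with 1 positive and 13 negative log2 fold changes among 14 tested. The sum of 15 S-phase genes was 3100 to 4037 in HLF KO and 2271 to 2667 in WT, and the 12 tested were all positive. That of 11 granulocyte and monocyte genes, with S100a9 at 0, was 76.6 to 216 in HLF KO and 137 to 2733 in WT, highest in WT library 3, and the 7 tested were all negative. The sum of 10 B-cell genes, with Cd22 at 0, was 34.0 to 53.5 in HLF KO and 83.6 to 162 in WT, and the 4 tested were all negative. The T and NK cell list, with Cd8a and Lck at 0, summed to 288 to 502 in HLF KO and 122 to 252 in WT. Nkg7 held 14225 of its counts, the next being Cd3e with 1807, and of the 8 tested 4 were positive and 4 negative. The erythroid list, with Hbb-b1, Hba-a1 and Alas2 at 0, summed to 2279 to 2734 in HLF KO and 1823 to 2283 in WT, with 6 positive and 1 negative of 7 tested. Car2 held 108076 of the counts of this list, the next being Ermap with 17322. The megakaryocyte list, with Mpig6b at 0, summed to 991 to 1281 in HLF KO and 524 to 781 in WT, with 7 positive and 1 negative of 8 tested. The endothelial and stromal list, with Pdgfra at 0, summed to 49.9 to 85.5 in HLF KO and 52.2 to 214 in WT, with 1 positive and 6 negative of 7 tested. The part of these in the values of the p53 genes was not tested. In bulk samples fewer cells of a type and less RNA per cell cannot be told apart.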

How the data were processed

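The deposited values are the authors' whole-number counts of reads, 1 column per library and 1 line per RefSeq transcript. The submitters' processing notes name TopHat and mm9. No version, counting tool, strand setting or rule for reads shared by transcripts is named there.

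Of 30858 transcripts, 30363 got a symbol from a RefSeq table (GRCm38.p6), 179 from GENCODE, and 316 kept their accession. Counts were summed per gene. edgeR 4.0.16 in R 4.3.3 tested HLF KO against WT over 6 libraries (TMM, filterByExpr with minimum count 10 and minimum total 15, robust quasi-likelihood F test, no covariates). Benjamini-Hochberg adjustment covered 10204 genes. SEs came from the F statistic. Levels per kb used GENCODE lengths of genes with 1 listed transcript. The fits were tested on simulated data in which only the more abundant genes were changed. Recovery at levels as low as those of Trp53, Sesn1, Sesn2 and Phlda3 was not part of it. Alternatives used DESeq2 1.42.0 on the same filtered genes, limma-voom 3.58.1, other scalings, filters and depths, a replicate block, and each library left out. Named genes were the members, per pathway list the called genes, the 3 of smallest p and the 2 most abundant, 5 textbook targets, and relatives. The members and lists were chosen with earlier results of these data known. Of the stem cell markers, 1 is not reported here.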

Additional observations from a re-analysis of the deposited data

How the results depend on the processing

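No member and no pathway gene was called by edgeR under any of the 15 alternatives to the settings used, nor by DESeq2 or limma-voom. Of 130 member values under these alternatives 128 kept their sign, the exceptions being Sesn2 without WT library 2 and Phlda3 without HLF KO library 3, and the smallest adjusted p was 0.48 (Mdm4 without WT library 3). With the filter of minimum count 50, Trp53, Sesn1 and Phlda3 were not tested, and with genes of 1 transcript Trp53 and Sesn1 were not. Over all genes, calls numbered 9 with no filter, 108 by DESeq2 and 2 with a replicate block, and 1 to 3 with a library left out, most without WT library 1. The labels do not say whether equal numbers pair the libraries. Same-numbered libraries correlated at -0.02 to 0.02 in their deviations from the group means, and differently numbered ones at -0.04 to 0.05. With 3 libraries a group this cannot decide whether they were paired. The block called no p53 gene (Chek1 stood at 1.31 and Gadd45g at 4.30 with it, at edgeR adjusted p of 0.418 and 0.885). With the block the SE of Chek1 fell from 0.77 to 0.32 and its unadjusted edgeR p from 0.090 to 0.0014. The SE of Gadd45g rose from 1.89 to 3.03. The largest range of a member was that of Phlda3, at 0.11 by limma-voom and 2.13 with upper-quartile factors. With 1 library left out the log2 fold change ran from -0.067 to 2.66 for Phlda3, -1.34 to 0.26 for Sesn2, -0.30 to 0.68 for Bax, -1.07 to 0.61 for Bbc3, -0.024 to 0.27 for Btg2, -2.18 to 0.46 for Ddb2, -2.13 to 0.63 for Gadd45b, -3.01 to 0.19 for Plk2, -0.38 to 0.085 for Rpl11 and -0.019 to 0.21 for Rps27l. Bax stood at 0.049 with upper-quartile factors, 0.00066 with no filter and 0.041 with the block. Phlda1 passed by DESeq2. The causes were not tested. The depth of 8346335 to 11998296 counts and 3 libraries a group limit the precision: the median SE was 0.59.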
